A study of Mus musculus with 24 samples.

Results

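MYH6, MYH7 and MHRT are neighbouring genes of the cardiac myosin locus, and their rows were taken by symbol from a table of 7493 genes, 3 of 7493 in all. The measurements were bulk RNA sequencing of 8 tissues of mice: heart, lung, aorta, stomach, brain, kidney, liver and spleen, with 3 libraries of each and 24 in all. All 8 groups came from SENCR-BAC mice, which carry the human long non-coding RNA gene SENCR on an artificial chromosome, so the transgene is common to every library. The library names of all 24 also carry the prefix SR-KI, which the labels do not explain. The labels name no treatment, strain or age and no animals without the transgene, and do not say which libraries share an animal. The design text describes biological triplicates; p-values measure the spread between these libraries.

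Cardiac muscle contracts through myosin, a motor protein whose heavy chain binds actin and splits ATP. MYH6 encodes the alpha heavy chain, which is fast, and MYH7 the beta heavy chain, which is slower and is also the heavy chain of slow skeletal fibres. In adult mouse ventricles the alpha chain prevails, and the beta chain is known from fetal and stressed mouse hearts. MHRT (Mhrt in the mouse) is a heart long non-coding RNA transcribed from between both genes, antisense to MYH7, and in the mouse it is known to bind BRG1, a chromatin remodeler encoded by Smarca4.

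The mouse locus shows why the 3 rows cannot be read as fully separate. In the GENCODE annotation of GRCm38, the longer Mhrt transcript has 5 exons and 828 bases, of which 484 (58.5%) lie over exons of Myh7 on the opposite strand. A shorter transcript has 447 bases and none over a Myh7 exon, and neither covers an exon of Myh6. The following stretch of the longer transcript (chromosome 14, bases 2 to 121 of the transcript) is shown because it crosses from sequence of its own into sequence shared with Myh7. The 60 capitals mark bases over Myh7 exons.
Mhrt: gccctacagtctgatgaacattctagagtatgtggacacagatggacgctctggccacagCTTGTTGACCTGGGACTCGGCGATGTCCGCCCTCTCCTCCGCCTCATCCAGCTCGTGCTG
Reads were counted on the human build GRCh38.p13, whose annotation was not used here, so the overlap of human MHRT with MYH7 was not examined. Nothing in the sources says whether strand was used in the counting. Without strand, a read from the shared exons cannot be told apart between MHRT and MYH7.

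**Figure D1:**
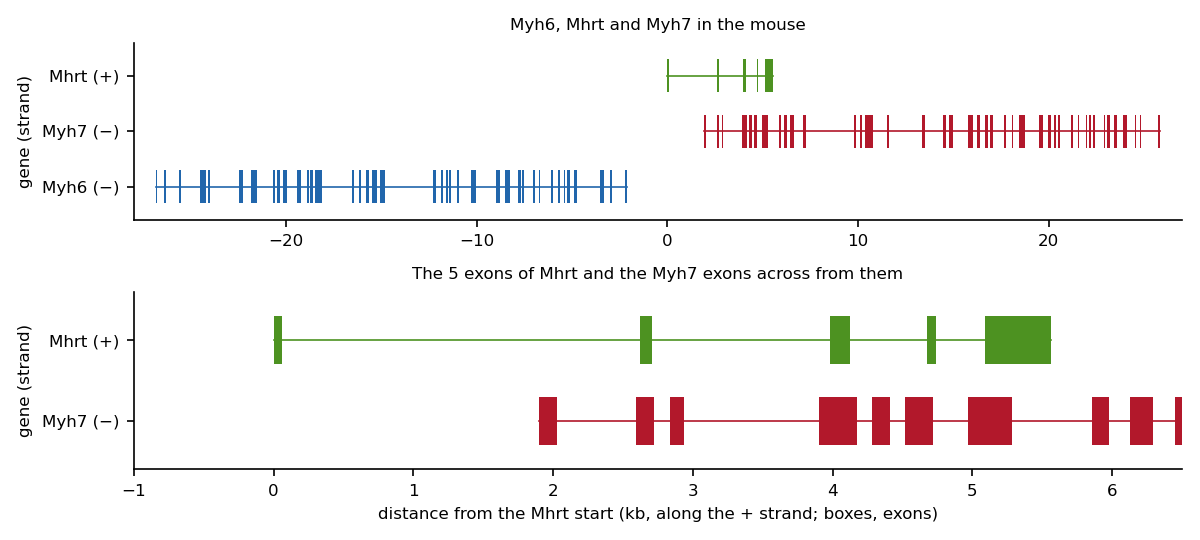
Exons (boxes) of mouse Myh6, Myh7 and Mhrt against distance from the Mhrt start in kb along the + strand, for the whole locus above and for the Mhrt transcript below. Of the 828 bases of the longer Mhrt transcript, 484 lie over Myh7 exons, which are on the other strand, and 0 over Myh6 exons.

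The myosins share long stretches of coding sequence as well. The main mouse Myh6 transcript has 5814 coding bases and that of Myh7 has 5805, and they were 91.5% identical over 5819 aligned columns. Of 5720 windows of 100 bases, 52.1% differed at 5 or fewer bases and 687 were identical. The longest identical run, 245 bases, is shown because a read from it cannot be assigned to either mouse gene (bases 4246 to 4490 of the Myh6 coding sequence and 4240 to 4484 of that of Myh7).
Myh6 and Myh7: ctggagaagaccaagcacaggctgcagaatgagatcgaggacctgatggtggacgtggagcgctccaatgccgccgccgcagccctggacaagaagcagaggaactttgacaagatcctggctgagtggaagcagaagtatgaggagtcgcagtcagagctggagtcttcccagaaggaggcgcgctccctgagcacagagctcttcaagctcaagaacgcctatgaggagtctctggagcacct
The window with the most differences, 35 of 100, is shown as the opposite extreme, with the differing bases in capitals (from base 3240 of the Myh6 coding sequence and from base 3234 of that of Myh7).
Myh6: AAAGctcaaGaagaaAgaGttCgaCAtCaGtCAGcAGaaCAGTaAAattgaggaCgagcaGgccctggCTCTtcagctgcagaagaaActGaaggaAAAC
Myh7: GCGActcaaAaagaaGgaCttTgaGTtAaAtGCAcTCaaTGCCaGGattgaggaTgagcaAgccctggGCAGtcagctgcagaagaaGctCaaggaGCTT
How mouse reads of either kind fell on human MYH6 and MYH7 was not tested, nor is it known from the sources how reads with several matches were treated. The level of a mouse gene also depends on how much of it matches the human gene, so levels of different genes are not on the same footing even per length.

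The promoters of the 3 genes are shown because the transcripts were high in the same tissue, each as 250 bases before and 50 bases after the RefSeq start in GRCm38.p6, read along the gene's own strand. Capitals mark CATTCC in either direction (GGAATG where it lies on the other strand), the core of the MCAT element that TEAD factors bind, and TATAAA, the TATA box.
Myh6 promoter, chr14:54966558-54966857, minus strand: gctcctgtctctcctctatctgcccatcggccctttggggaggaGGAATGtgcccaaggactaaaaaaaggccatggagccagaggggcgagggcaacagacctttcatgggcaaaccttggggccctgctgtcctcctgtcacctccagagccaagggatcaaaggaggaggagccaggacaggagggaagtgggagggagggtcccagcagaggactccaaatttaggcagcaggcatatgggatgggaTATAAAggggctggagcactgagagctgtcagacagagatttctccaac
Mhrt promoter, chr14:54968537-54968836, plus strand: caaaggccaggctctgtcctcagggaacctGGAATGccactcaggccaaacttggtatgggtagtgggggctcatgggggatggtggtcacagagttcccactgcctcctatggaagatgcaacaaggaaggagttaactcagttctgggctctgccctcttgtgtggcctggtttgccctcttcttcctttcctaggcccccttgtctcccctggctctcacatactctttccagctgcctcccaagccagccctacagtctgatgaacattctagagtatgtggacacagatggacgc
Myh7 promoter, chr14:54994577-54994876, minus strand: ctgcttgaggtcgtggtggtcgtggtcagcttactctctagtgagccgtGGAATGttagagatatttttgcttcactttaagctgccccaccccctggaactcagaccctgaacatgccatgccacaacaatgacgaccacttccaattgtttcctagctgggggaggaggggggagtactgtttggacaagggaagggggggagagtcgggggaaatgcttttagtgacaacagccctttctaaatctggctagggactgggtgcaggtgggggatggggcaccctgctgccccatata
CATTCC lay on the opposite strand once in each of the 3 windows, and 14.7% of 32851 RefSeq promoters of the same length held it on either strand. A second listed start of Myh7, at chr14:54994500-54994799, gave a window without it. TATAAA lay in the Myh6 window and not in those of Mhrt or Myh7, against 13.6% of all promoters. In the Myh6 window it began at base 2 of the 50 after the listed start, and not before that start. AGGTCA, the nuclear receptor half-site, was in none of the 4 windows and in 16.3% of all promoters, and neither the MEF2 site nor the CArG box of SRF was in any of the 4, against 3.19% and 1.63%. The short E-box CANNTG was in all 4 windows and 72.3% of all promoters. GATA was in the Myh6 and the first Myh7 window and not in that of Mhrt, against 57.9% of all promoters, and in the Myh6 window 1 of its matches overlaps TATAAA. All motifs were looked for on both strands, and a match of letters is a description of the window and not a binding site.

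Both myosins and MHRT had their highest level in heart. Values are FPKM, a level per gene length and per library total, as the authors deposited them. MYH6 had 5955, 4798 and 5630 FPKM in heart, against 42.0, 12.9 and 34.3 FPKM in lung. No library of another tissue came near the heart libraries, and every lung library was above every library of the remaining 6 tissues. MYH6 was at 0.525 FPKM or less in kidney, 0.812 or less in aorta, 0.575 or less in stomach and 0.290 or less in brain, and at 0 in all liver and spleen libraries. Kidney, aorta, stomach and brain held 7 MYH6 reads together, with 0 in 6 of their 12 libraries.

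MYH7 followed the same order at its top and differed at its bottom. It had 1913, 1487 and 1726 FPKM in heart, against 44.5, 44.0 and 30.6 FPKM in lung. The heart and lung libraries again did not overlap, and the lung libraries did not overlap with the rest. Aorta had 0, 0.769 and 0.798 FPKM (4 reads), brain had 0, 0.515 and 0 FPKM (2 reads), and stomach, kidney, liver and spleen were at 0. MHRT had 173, 149 and 189 FPKM in heart and was at 0 in each of the 21 libraries of other tissues. In bulk tissue, fewer cells of a type and less RNA per cell cannot be told apart.

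**Figure D2:**
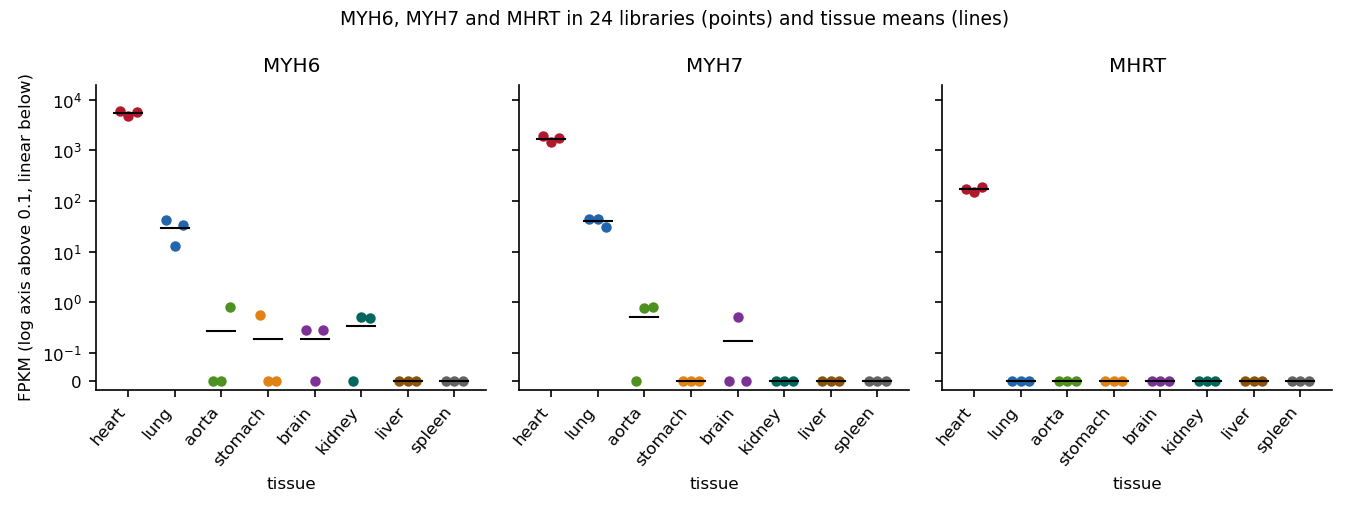
FPKM of MYH6, MYH7 and MHRT in 24 libraries by tissue, with the tissue mean as a line, on an axis that is logarithmic above 0.1 and linear below. Heart libraries sit at 4798 to 5955 FPKM for MYH6, 1487 to 1913 for MYH7 and 149 to 189 for MHRT, lung libraries sit between heart and the rest for both myosins, and MHRT is at 0 outside heart.

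The differences from the other tissues were far above the spread between libraries. Heart averaged 5461 ± 597 FPKM for MYH6, 1709 ± 214 for MYH7 and 170.2 ± 20.1 for MHRT (SD, n = 3). On the log2(FPKM + 1) scale, which understates the change of low genes, heart exceeded the mean of the other 7 tissues by 11.56 for MYH6 (SE 0.27, adjusted p = 8.58e-18 in limma). The same difference was 9.86 for MYH7 (SE 0.20, adjusted p = 7.36e-19) and 7.41 for MHRT (SE 0.13, adjusted p = 6.68e-20), also in limma. All 3 members were called, that is, passed an adjusted p of 0.05 with a difference of at least 1, where 6.41% of 4260 genes tested were called higher and 17.4% lower, around a median difference of -0.44 over all genes. MHRT passed the filter on low values through its heart libraries alone, so its call carries no more than its values do. All 21 other libraries were at 0 for MHRT and show no spread. Its SE and p, here and against lung, therefore cannot be compared with those of the myosins. An exact two-sided permutation test of 3 heart against 21 other libraries gave p = 0.000494 for each member, the smallest that 2024 splits allow, also after adjustment over the 3.

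As ratios of mean FPKM, heart exceeded lung 184-fold for MYH6 (95% counting interval 164 to 211) and 43.1-fold for MYH7 (38.8 to 48.0). MHRT was at least 71.6-fold higher in heart than in lung, taking 3 reads over the 3 lung libraries as the limit of a count of 0. With the upper end of the exact 95% counting interval of 0 reads in its place, the lower limit was 58.2-fold. Against all 21 other libraries, with 3 reads over the whole group, it was at least 425-fold higher. MYH6 in heart was 20164-fold above aorta, where 2 reads stood behind the level (95% counting interval 5656 to 168714), and, with 3 reads over the spleen group as the limit of its 0 reads, at least 16396-fold higher than in spleen (13334-fold by the exact interval). Such intervals and limits cover counting error of the other tissue only, with the heart mean taken as fixed. They leave out the spread between libraries, which for MYH6 in lung ran from 12.9 to 42.0 FPKM. Without molecular identifiers a molecule may also have been read more than once.

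Lung was the only other tissue whose myosin levels stood apart. MYH6 averaged 29.7 ± 15.1 FPKM and MYH7 39.7 ± 7.88 FPKM in lung (SD, n = 3), on 251 and 345 reads. Against the mean of the 6 tissues other than heart and lung, lung was higher by 4.60 for MYH6 (SE 0.27, adjusted p = 2.42e-10 in limma) and by 5.20 for MYH7 (SE 0.20, adjusted p = 3.78e-13) on the log2(FPKM + 1) scale. In that contrast 11% of genes were called higher and 3.9% lower, around a median of 0.08. Heart exceeded lung by 7.62 for MYH6 (SE 0.36, adjusted p = 3.50e-12 in limma), 5.41 for MYH7 (SE 0.26, adjusted p = 5.75e-12) and 7.41 for MHRT (SE 0.17, adjusted p = 9.14e-18), where 5.75% of genes were called higher and 23.8% lower around a median of -0.48.

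The order of tissues therefore had 3 levels for the myosins and 2 for MHRT. By mean level MYH6 ran heart, lung, kidney (0.336 FPKM), aorta (0.271), stomach (0.192), brain (0.191), then liver and spleen at 0. MYH7 ran heart, lung, aorta (0.522), brain (0.172), then the other 4 at 0. Of 28 pairs of tissues, 13 were called for MYH6 and 13 for MYH7, all of which involved heart or lung, and 0 of the 15 pairs among the other 6 tissues (limma; at an unadjusted p under 0.05 there were 0 for MYH6 and 4 for MYH7, and by voom 0 and 1). For MHRT, 7 of 28 pairs were called, each with heart. A pseudocount of 0.1 called 17 pairs for MYH7, at least 4 of them among the 6 low tissues, and voom called 10 for MHRT, at least 3 of them between tissues with 0 reads. At this depth a count of 0 over a tissue's 3 libraries allows up to 0.817 FPKM of MYH6 in liver and 0.333 in spleen, up to 0.803 FPKM of MYH7 in liver, and between 1.88 (brain) and 5.54 FPKM (liver) of MHRT. The limit for MHRT is looser because its gene is short, at 909 bases as the FPKM steps imply, against 6167 for MYH6 and 6275 for MYH7.

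The spread over heart libraries was 10.9% of the mean for MYH6, 12.5% for MYH7 and 11.8% for MHRT. Counting error alone gives 0.891% to 0.987% of MYH6 and 1.56% to 1.76% of MYH7 in a heart library, and 13.1% to 14.6% of MHRT, which rested on 54, 47 and 58 reads. These MHRT numbers are the smallest that its FPKM steps allow, and a shared factor in the true counts would raise them. Heart replicate 2 had the lowest value of all 3 members.

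Within each library the ratio of MYH6 to MYH7, which no scaling between libraries can change, separated heart from lung. The ratio of FPKM was 3.11, 3.23 and 3.26 in heart, against 0.944, 0.293 and 1.12 in lung. All 3 heart values lay within a few percent of each other and above all 3 lung values, of which replicate 2 was the lowest. Heart averaged 3.20 ± 0.0781 and lung 0.786 ± 0.436 (SD, n = 3). The heart spread of 2.44% of the mean was close to the 1.80% to 2.02% that counting alone gives in a heart library. How mouse reads of either gene fell on human MYH6 and MYH7 was not tested. The ratio therefore describes counted levels and does not measure the proportion of the mouse transcripts.

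The geometric mean of the ratio was 4.73-fold higher in heart than in lung, a log2 difference of 2.24, which was 1.64 without lung replicate 2 and 2.61 without lung replicate 3. An exact two-sided permutation test of 3 against 3 gave p = 0.10, the smallest that 20 splits allow, so this design cannot pass 0.05. One further library had reads of both genes, aorta replicate 3, with a ratio of 1.02 on 2 reads each. Against these 4 libraries the log2 difference was 2.09 (exact permutation p = 0.0286, the smallest of 35 splits, and 0.114 after Benjamini-Hochberg adjustment over 4 tests of ratios). In the other 17 libraries at least one of the pair was at 0, and no ratio was taken.

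As a share of the reads counted at both human genes, with the same limit, MYH6 took 75.4%, 76.0% and 76.2% in heart. In lung it took 48.1%, 22.4% and 52.4%. The exact (Clopper-Pearson) 95% binomial intervals in heart were 74.7% to 76.0%, 75.3% to 76.7% and 75.5% to 76.9%. In lung they were 41.6% to 54.7%, 16.3% to 29.4% and 44.99% to 59.7%. Lung replicate 2 lay outside the intervals of the other lung libraries. Its MYH6 level, 12.9 FPKM, was the lowest of the lung libraries, while its MYH7 level, 44.0 FPKM, was near that of replicate 1.

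MHRT kept a narrow ratio to both myosins in heart. It stood at 2.91%, 3.10% and 3.35% of the MYH6 level (3.12 ± 0.223%) and at 9.05%, 10.01% and 10.9% of the MYH7 level (9.997 ± 0.942%, SD, n = 3). Relative to the sum of both it was 2.20%, 2.37% and 2.57% (2.38 ± 0.183%). In reads, which are not divided by gene length, it was 0.460% of MYH6, 1.45% of MYH7 and 0.349% of both. The counting error of each of these ratios, near that of MHRT alone, was larger than the spread between the 3 libraries.

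Lung had no MHRT read, and its depth limits what that says of the ratio. As ratios of mean levels, MHRT was 3.12% of MYH6 in heart and at most 8.01% in lung, taking 3 reads over the lung group as the limit of a count of 0. It was 9.96% of MYH7 in heart and at most 5.996% in lung, and 2.37% of both in heart and at most 3.43% in lung. At the heart's ratio to MYH7 level, lung would have held 4.98 MHRT reads, and at its ratio to MYH6 level 1.15 reads, against 0 observed. The limit for lung lay below the heart value only relative to MYH7, and it covers counting error alone. Where reads shared with MYH7 were assigned was not tested.

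**Figure D3:**
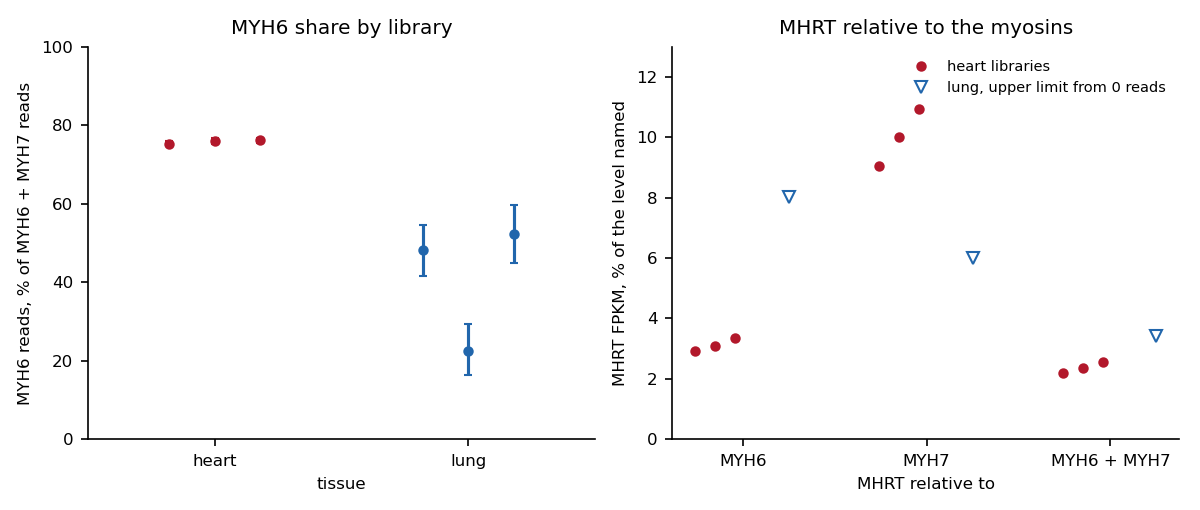
Left, MYH6 reads as a percent of MYH6 and MYH7 reads in each heart and lung library with exact 95% binomial intervals. Right, MHRT FPKM as a percent of MYH6, MYH7 and their sum in each heart library (points), with the upper limit that 0 reads allow over the lung group (triangles): heart shares are 75.4% to 76.2% and lung shares 22.4% to 52.4%, and only the limit relative to MYH7 lies below the heart points.

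The lung signal of MYH7 was a few percent of its heart level and that of MYH6 a smaller part. Lung stood at 0.544% of the heart mean for MYH6 and 2.32% for MYH7. The same quotient was 2.15% for ACTC1 (cardiac alpha actin), 1.58% for ACTN2 (the Z-disc protein alpha-actinin), 2.64% for LDB3 (a Z-disc adaptor), 1.71% for TNNT2 (cardiac troponin T, 1 lung read) 0.727% for RYR2 (the calcium release channel, 4 lung reads) and 3.91% for TTN (titin, 9 lung reads). MYH6 was the lowest of the genes with any lung read, and MYH7 lay beside ACTC1. MHRT and the markers CKMT2, TNNC1, MYBPC3, CSRP3 and TNNI3 were at 0 in lung. For CKMT2, the mitochondrial creatine kinase of striated muscle, 430 heart reads would correspond to 13.5 lung reads at the quotient of MYH7 and 3.12 at that of MYH6.

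**Figure D4:**
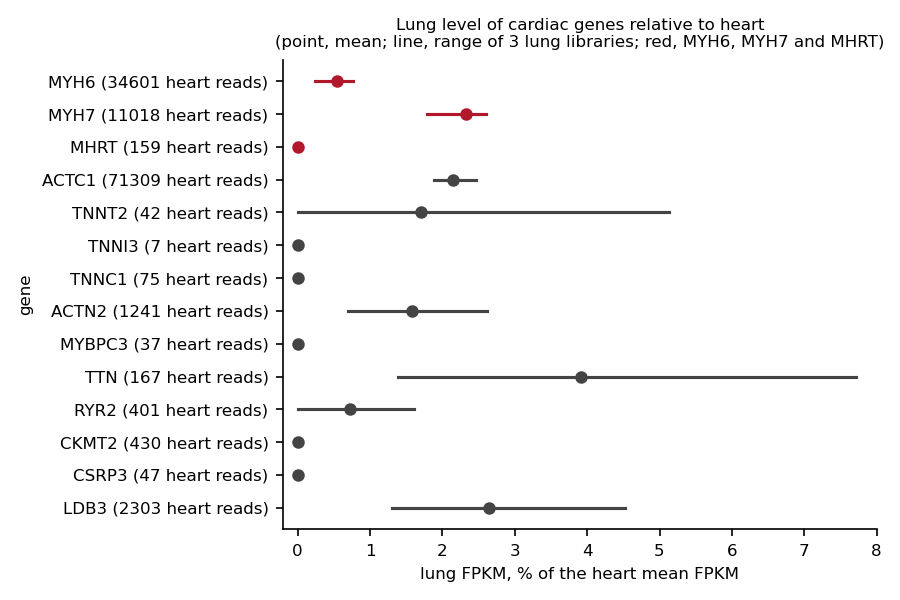
Mean lung FPKM of each gene as a percent of its mean heart FPKM (points) with the range over 3 lung libraries (lines), for MYH6, MYH7 and MHRT in red and 11 cardiomyocyte markers in grey, with the heart reads behind each. MYH6 lies at 0.544%, MYH7 at 2.32% and ACTC1 at 2.15%, while MHRT and 5 markers lie at 0.

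Relative to ACTC1, a comparison chosen after the values were seen, the myosins parted. MYH6 was 14.1%, 9.54% and 10.7% of the ACTC1 level in heart, against 3.52%, 1.42% and 3.38% in lung. The libraries did not overlap, and heart was 4.41-fold higher (log2 difference 2.14, exact permutation p = 0.10, the smallest possible, adjusted 0.133). MYH7 was 4.54%, 2.96% and 3.28% of ACTC1 in heart, against 3.73%, 4.84% and 3.02% in lung. Here the libraries overlapped, with a log2 difference of -0.10 (exact permutation p = 0.70) that changed sign without heart replicate 2 (0.03) or lung replicate 2 (0.07). A p this large in 3 against 3 libraries does not show that the ratios are equal.

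A few markers of cardiomyocytes and several of fast skeletal muscle were higher in lung beside the myosins. The summed level of the 11 cardiomyocyte markers in the table was 42933 to 53802 FPKM in heart, against 917 to 1205 in lung, 27.4 to 99.6 in aorta and 14.1 to 56.9 in stomach. ACTC1 alone made up 1192, 909 and 1013 FPKM of the lung sums, and 5 of the 11 markers had no lung read. All 11 were called higher in heart than in the other 7 tissues, and in lung 3 of 11 (ACTC1, ACTN2 and LDB3) were called higher than in the remaining 6, with a median difference of 0 over the 11 against 0.08 over all genes. Several are at 0 outside heart and passed the filter through heart alone, so the count describes them and supports nothing. The 9 fast skeletal genes in the table summed to 23.5, 36.9 and 42.6 FPKM in heart, against 68.8, 46.2 and 152 in lung. Of those tested, 2 of 5 were called higher in heart (MYH2 and ACTA1, skeletal alpha actin), against 6.41% of all genes, and 5 of 5 in lung (also MYH1, MYH4 and ATP2A1, the calcium pump of fast fibres), against 11%. ACTA1 had 5.65, 5.58 and 9.56 FPKM in heart, overlapping lung (7.27, 8.10 and 51.5) and stomach (4.58, 10.1 and 0). Its heart call was lost at a pseudocount of 5 (difference 0.80). MYH1, MYH4 and ATP2A1 passed the filter on low values only with their lung libraries, so the lung count supports nothing. The 9 fast skeletal genes summed to 13.97, 63.1 and 1.20 FPKM in stomach and to at most 2.86 in aorta. The part of either cell type in the lung myosin signal was not tested.

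Stomach replicate 2 had fast skeletal transcripts and neither cardiac myosin. It had 28.4 FPKM of MYH4, the IIb heavy chain of fast fibres, and 48.2 FPKM of MYH13, the heavy chain of extraocular muscle, with MYH6 and MYH7 at 0. MYH13 was at 0 in heart and reached 49.2, 13.4 and 31.2 FPKM in lung, in the range of MYH7 there.

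The other myosin heavy chain genes were low in heart next to MYH6 and MYH7 and ordered differently. Of 13 on the list, 11 were in the table and 9 were tested. Of these, 1 was called higher in heart and 3 lower, against 6.41% and 17.4% of all genes. Counts this small do not set the list apart. In heart only MYH2, the IIa heavy chain of fast fibres, was called higher, at 17.9, 31.3 and 33.1 FPKM against 21.6, 12.5 and 32.2 in lung (difference from the other 7 tissues 3.87, SE 0.41, adjusted p = 2.55e-07 in limma). Its heart and lung libraries overlapped. MYH9 and MYH10, of non-muscle myosin II, and MYH11, of smooth muscle, were called lower in heart. MYH11 had 4.04, 2.40 and 6.15 FPKM in heart (difference -1.61), MYH10 had 2.67, 0.991 and 1.02 (-1.43), and MYH9 had 9.42, 10.1 and 16.4 (-1.13). These calls are against the mean of the other tissues: for MYH9 brain was below heart and liver overlapped it, for MYH11 brain overlapped heart, and for MYH10 stomach, kidney, liver and spleen did. The call of MYH9 was lost under median-ratio scaling (-0.60), quantile normalization (-0.57), voom (-0.65) and a pseudocount of 5 (-0.99), and without heart replicate 1 (-0.99). That of MYH10 was lost under voom (-1.19) and a pseudocount of 5 (-0.90), with no change of sign in either gene. The median of the 9 was -0.96, against -0.44 over all genes.

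In lung 8 of those 9 were called higher than in the remaining 6 tissues, against 11% of all genes, and their median difference was 2.67 against 0.08. MYH1, MYH3, MYH4 and MYH13 passed the filter on low values only with their lung libraries, so neither the count nor the median is support for a difference of the list. They were the fast skeletal chains MYH1, MYH2 and MYH4, the embryonic skeletal chain MYH3, MYH13, and the non-muscle chains MYH9, MYH10 and MYH14. MYH4 was at 0 in all heart libraries and had 15.1, 7.16 and 42.1 FPKM in lung, and MYH3 was at 0 in heart and had 10.9, 5.91 and 12.9 in lung. MYH7B, a slow-type chain whose gene hosts a microRNA, had 0.714, 2.12 and 1.81 FPKM in heart on 13 reads and 0 in lung, and did not pass the filter. MYH8 had 0 reads in heart and 3 in lung. These genes share sequence with one another, and reads of one may have been counted at another, which was not tested.

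**Figure D5:**
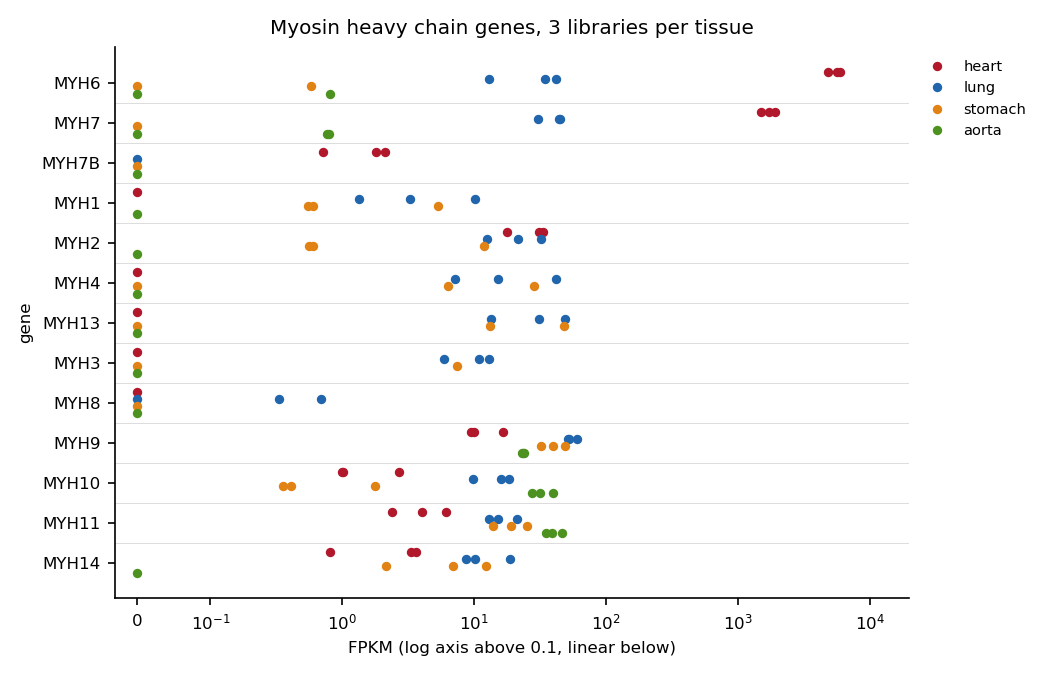
FPKM of MYH6, MYH7 and the 11 other myosin heavy chain genes of the table in heart, lung, stomach and aorta, with 3 libraries each as points, on an axis logarithmic above 0.1 and linear below. MYH6 and MYH7 reach 1487 FPKM or more in every heart library, while MYH13, MYH4, MYH3 and MYH1 are at 0 in heart and above 0 in every lung library.

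The partners of the heavy chains were thinly covered. Of 17 myosin light chain and light chain kinase genes, 6 were in the table and 5 tested. MYL6, the essential light chain of non-muscle and smooth muscle myosin, was called lower in heart than in the other 7 tissues (difference -1.92), as was MYLK, the smooth muscle light chain kinase (-1.52). Both calls are against the mean of the other tissues. For MYL6 brain (3506 to 4613 FPKM) overlapped heart (3084 to 3766), and for MYLK brain and liver overlapped heart. MYLK4, a kinase known from striated muscle, was called higher in heart at 1.99, 3.28 and 4.04 FPKM, against 0.256, 0.238 and 0.245 in lung, but aorta was above heart at 7.40, 7.96 and 8.55. Of the atrial light chain MYL7, heart had 1 read and lung 2. Among thick filament genes, 4 of 13 were in the table and all 3 tested were called higher in heart, against 6.41% of all genes. MYBPC3 and TTN passed the filter only through heart, so the count describes them and no more. The 3 were MYBPC3, cardiac myosin-binding protein C (5.33, 6.58 and 12.8 FPKM, and 0 in lung), UNC45B, a myosin chaperone (9.85, 2.92 and 5.50, against 2.66, 0.706 and 4.005 in lung), and TTN, the giant spring titin (1.15, 1.23 and 1.63, against 0.0185, 0.103 and 0.0355 in lung).

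Slow skeletal fibres share MYH7 with heart. Of 10 slow skeletal genes 5 were in the table and 4 tested, of which 3 were called higher in heart and 1 lower, against 6.41% and 17.4% of all genes. TNNC1 and CSRP3 passed the filter only through heart, so their calls add nothing to their values. TNNC1, the troponin C of slow and cardiac muscle, had 85.8, 113 and 108 FPKM in heart and 0 in lung. ATP2A2, the calcium pump of slow and cardiac muscle, and CSRP3, a muscle LIM protein, were also called higher in heart, and TPM3, whose products include slow tropomyosin, was called lower (-1.46). ATP2A2 reached 19.6, 24.4 and 42.3 FPKM in heart, against 3.13, 8.25 and 3.00 in lung. Brain, at 26.1, 34.3 and 28.6 FPKM, lay within the range of heart. TPM3 lost its call under median-ratio scaling, quantile normalization and voom, with the sign unchanged.

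Of 34 regulators known from cardiac myosin genes, 24 were in the table and 19 tested, of which 4 were called higher in heart and 2 lower, against 6.41% and 17.4% of all genes. Their median difference was -0.07, against -0.44 over all genes. HAND2, a basic helix-loop-helix factor of the developing heart, had 27.3, 26.9 and 30.8 FPKM in heart, against 0.779, 0.724 and 0 in lung (difference from the other 7 tissues 3.35, SE 0.51, adjusted p = 2.64e-05 in limma). TEAD1, the factor of the MCAT element printed above, had 41.2, 30.3 and 43.6 FPKM in heart, against 48.1, 88.3 and 62.0 in lung. It was called higher in heart than in the other 7 (difference 1.84) and in lung than in the other 6 (3.02), and every lung library was above every heart library.

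SRF, which binds the CArG box, was called higher in heart (289.5, 233 and 240.0 FPKM, against 141, 120 and 185 in lung, difference 1.08), a call lost without heart replicate 1 (0.98). GATA6, a zinc finger factor, had 2.32, 3.83 and 7.08 FPKM in heart on 17 reads, against 2.99, 10.002 and 4.58 in lung. It lay at the limit of the call in heart (1.00, adjusted p = 0.0156 in limma), although all 3 aorta libraries (9.31, 20.5 and 7.32 FPKM) and the stomach mean (8.57) were higher. The call was lost in 8 alternatives: a pseudocount of 5 (0.29), heart replicate 3 left out (0.66, adjusted p = 0.164 in limma), and replicate 1 or 3 of lung, aorta or stomach left out (0.95 to 0.99). SMARCA4, the BRG1 gene whose product mouse Mhrt binds, had 0.463, 0 and 0 FPKM in heart on 1 read, against 1.07, 0 and 1.71 in lung on 8 reads. It was called lower in heart (-1.10, adjusted p = 0.0375 in limma), as was PURB, a single-strand binding repressor (-1.05), and their calls were lost in 7 and 6 of the alternatives. Among these were the fits without heart replicate 1, 2 or 3 for SMARCA4 (-1.29 to -1.01) and without heart replicate 3 for PURB (-0.95). The thyroid hormone receptors, which in the mouse control both myosins, were not called. THRA had 418, 373 and 389 FPKM in heart, against 495, 430 and 554 in lung, and THRB had 0.752 to 1.52 in heart and 0.910 to 1.69 in lung.

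Among the regulators called in lung, GATA6, MEF2A and TEAD1 were higher and SOX6 lower. MEF2A had 106, 95.7 and 85.9 FPKM in heart, against 95.3, 111 and 116 in lung, with overlapping libraries, and is a factor of muscle genes. Aorta, at 114, 130 and 132 FPKM, had a higher MEF2A mean than lung, so that call is against the mean of the 6 tissues only.

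The flanking genes of the locus were mostly at low levels. The locus list held 18 rows beside the members, among them MYHAS and microRNAs, which are not flanking genes. Of these 18, 8 were in the table and 6 tested. In heart 0 were called higher by limma (0 at an unadjusted p under 0.05, 0 by voom) and 1, SLC22A17, was called lower. Over all genes 6.41% were called higher and 17.4% lower, so these counts over 6 genes do not set the flanking genes apart. SLC22A17, a lipocalin receptor gene, had 2.31, 0 and 0 FPKM in heart and 3.56, 11.6 and 5.97 in lung, and reached 834 to 934 in brain. JPH4, a neuronal junctophilin, was at 0 in heart and lung. THTPA, a thiamine triphosphatase, had 13.6, 9.57 and 2.95 FPKM in heart, against 9.71, 14.6 and 3.58 in lung. AP1G2, PABPN1, BCL2L2, ZFHX2 and PPP1R3E held 0 to 3 reads each over the heart libraries.

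Across the 24 libraries MYH6 and MYH7 were each other's nearest gene. Pearson's r on log2(FPKM + 1) was 0.989 between them, with 0 genes more like either. These correlations describe a table in which heart and lung set most of the range, so they carry no p. Among the next genes for MYH6 were NRAP (a myofibril assembly protein, r = 0.972), ACTN2 (0.963), PPP1R14C (a phosphatase inhibitor, 0.961), ITGB1BP2 (melusin, 0.955) and LDB3 (0.946). These 5 genes were also among the nearest for MYH7, with r between 0.934 for LDB3 and 0.962 for ITGB1BP2.

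MHRT had other neighbours. Its nearest were CKMT2 (r = 0.999), TNNC1 (0.999), TTN (0.990), MYBPC3 (0.989), SRL (sarcalumenin of the sarcoplasmic reticulum, 0.987) and PDE4DIP (myomegalin, 0.984). CKMT2, TNNC1, MYBPC3 and SRL were at 0 in all 21 libraries outside heart, as MHRT was. MHRT had r = 0.927 with MYH6 and 0.884 with MYH7, and 15 genes were more like MHRT than MYH6 was. The choice of measure matters: of each top 6 by Pearson, 1 for MYH6, 1 for MYH7 and 4 for MHRT were also in the top 6 by Spearman's rho over the same libraries, and 5, 4 and 4 over the 8 tissue means.

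Most of the tissue markers in the table were highest in their own tissue, and depth differed between tissues. Assigned reads per library, worked out from the FPKM steps, ran from 336560 to 345893 in heart, 446765 to 481420 in lung and 185724 to 628043 over all 24. ACTC1 was at 42103 FPKM or more in every heart library, and NKX2-1, the lung and thyroid transcription factor, at 0 in heart and 207 to 225 FPKM in lung. BARX1 was at 9.05 to 35.8 FPKM in stomach and 0 elsewhere, and ACTA2, of smooth muscle, at 44.0 to 53.3 in aorta, for which no marker of its own was listed. All 4 neuron markers were highest in brain and all 3 kidney tubule markers in kidney. Of 4 hepatocyte markers CPS1 and FGA were highest in liver, while ALB had 1 read in liver against 37 in aorta, and APOA1 had 0 in liver against 3 in aorta. SPI1, of white blood cells, had its highest mean in spleen, with libraries that overlapped those of lung. Of the chamber markers, 3 of 8 atrial and 1 of 5 ventricular markers were in the table, so chambers could not be checked. Replicate libraries of a tissue had correlations of 0.949 to 0.973 and differed by more than sampling noise in every pair.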

How the data were processed

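Total RNA was extracted with TRIzol and made into libraries with a VAHTS Universal V10 kit, per the labels' protocols. The submitters' processing notes name fastp, HISAT2, HTSeq and the human build GRCh38.p13, without versions, and the sources used here give neither annotation nor strand setting. The authors deposited a table of FPKM for 7493 genes under human symbols, 91.4% of which match a mouse symbol. Tissue and replicate number came from the sample titles. The members and gene lists were chosen with earlier results of these data known.

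Values were analysed as log2(FPKM + 1), for the 4260 genes that reached 1 FPKM in 3 or more libraries, with limma 3.58.1 in R 4.3.3 on 8 tissue means with a variance trend. Benjamini-Hochberg adjustment ran over all genes, and a call took an adjusted p below 0.05 with a log2 difference of 1 or more. Simulated data for heart against the other 7 tissues (4259 genes) were scored by the adjusted p below 0.05 alone, without the limit on the difference. That p was reached by 31.8% of 110 genes altered 2-fold, 97.8% of 90 altered 4-fold and 7 of 4059 unaltered genes. The median estimate for the 2-fold genes was 0.971, so the full rule would call fewer of them. The simulation gave all genes the same assumed overdispersion and an equal mean in the 7 tissues other than heart. Real tissues differ widely, so these shares describe the simulated setting only. Read numbers were recovered from the FPKM steps for 7492 genes (99.99%, relative tolerance 1e-06), and in simulation were exact for 97% of 6825 genes. They gave depth, counting intervals and 1 alternative.

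Genes named are the 3 members, list members called in heart or lung with up to 4 abundant others per list, locus rows and the 6 genes of highest Pearson r with each member. Some genes that this rule names are not reported here. THRA and THRB, MYH7B, MYH8, MYH13 in stomach and the ACTC1 ratios were singled out after their values were seen. Transcripts are from GENCODE M21 (GRCm38) and promoters from RefSeq. Alternatives were pseudocounts of 0.1 and 5, a 5 FPKM filter or none, scaling to TPM, by median ratio or by quantiles, a replicate block, voom on recovered reads, a fit of heart and lung alone, and each library left out in turn. Python 3.11.15, pandas 2.3.3 and scipy 1.17.1 were used.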

Additional observations from a re-analysis of the deposited data

How the results depend on the processing

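No difference of MYH6, MYH7 or MHRT lost its call or changed direction in any of the alternatives run. Heart over the other 7 tissues ranged from 11.49 to 11.65 for MYH6, 9.78 to 9.96 for MYH7 and 7.34 to 7.51 for MHRT with each library left out. Under the other settings it ranged from 9.67 to 13.86, 7.94 to 12.40 and 5.12 to 10.73, with the ends set by the pseudocount. Lung over the remaining 6 ranged from 2.64 to 7.22 for MYH6 and 3.11 to 8.12 for MYH7. In all, 1298 of 1361 alternative values were scored as kept. A count was scored as kept when it stayed within a set factor of the main count, and so need not be unchanged. A ratio was kept when it stayed within its SD between libraries. A test that was not called in the main setting and stayed so, in the same direction, was also scored as kept.

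The log2 ratio of MYH6 to MYH7 in heart against the 4 other libraries ranged from 1.64 to 2.29 with a library left out, at exact permutation p of 0.0667 to 0.10, since fewer libraries cannot give a smaller p. In reads, MHRT was 0.460% of MYH6, 1.45% of MYH7 and 0.349% of both in heart. In reads, MYH6 was 49.2% of ACTC1 in heart and 11.9% in lung, and MYH7 was 15.7% in heart and 16.9% in lung. The log2 difference of MYH7 relative to ACTC1 ranged from -0.28 to 0.0734 with a library left out, and was above 0 without heart replicate 2 (0.0262) or lung replicate 2 (0.0734). These ratios in reads differ from those in FPKM by gene length alone.

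Counts over all genes moved with scaling. The median heart difference was -0.44 as deposited, -0.21 under median-ratio scaling, -0.18 under quantile normalization and -0.07 under voom, and heart then had 426, 426 and 472 genes called higher and 400, 358 and 391 lower under these 3, against 273 and 743. A pseudocount of 5 gave 153 higher and 303 lower in heart, and 237 higher and 70 lower in lung. A pseudocount of 0.1 gave 255 lower in lung and voom 562, against 166.

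Among list genes, other heavy chains called higher in heart became 2 without a filter and under TPM scaling, and those lower became 1 with a pseudocount of 5 and under voom and 2 to 5 with a library left out (5 without stomach replicate 3). With a pseudocount of 5 the light chain list had 0 higher and 1 lower, thick filament genes 1 higher (1 also at a 5 FPKM filter), and lung 5 higher heavy chains. Regulators called higher became 7 under TPM and 8 under median-ratio, quantile and voom. Regulators called lower became 0 with a pseudocount of 5, median-ratio and quantile scaling, 1 under no filter, the 5 FPKM filter, TPM and voom, and 0 to 3 with a library left out (0 without heart replicate 3, 3 without heart replicate 1). Locus rows called lower became 3 at a pseudocount of 0.1, 2 under TPM and 1 to 2 with a library left out. Slow skeletal genes called lower became 0 under median-ratio, quantile and voom. Of 1708 alternative values for single list genes, 55 lost their call, over 23 gene and contrast pairs, and 0 reversed. The cause was not tested.

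Whether the replicate numbers pair the samples was not settled. Deviations of same-numbered libraries correlated at -0.0589 to 0.128 (mean 0.0341, against -0.0170 for different numbers). Only 2 of 84 pairs exceeded 0.1, and by that limit the numbers were not taken as pairs in the main fit. However, 20 of 24 libraries correlated best with their own number. FLI1, a listed gene picked after its values were seen, was lowest in replicate 2 of every tissue. It had 310, 115 and 228 FPKM in heart and 846, 325 and 524 in lung. Libraries of the same number may thus share some deviation, whose source was not tested. The main fit and the exact permutation tests treated all 24 libraries as independent, and their p-values rest on that. With a replicate block, heart had 275 genes called higher and 742 lower and lung 472 and 167, and no member's call changed. The paired sign-flip p of the MYH6 to MYH7 ratio, heart against lung, was 0.25, the smallest that so few pairs allow.

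Depth limits MHRT most, since 159 heart reads stand behind it, and limits both myosins in the 6 tissues where they had 4 reads or fewer. Tissue and depth cannot be told apart, since depth differed between tissues. Counting on a human build limits comparisons between genes.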
